A study of Bos taurus with 4 samples.

Results

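Small leucine-rich proteoglycans are secreted proteins built around a curved run of leucine-rich repeats, and 7 genes of this family were followed in bovine granulosa cells: LUM, DCN, BGN, OGN, FMOD, ASPN and PRELP. All probes that the platform annotation assigns to these symbols were taken, which gave 9 of the 43794 probes on the array: 3 for ASPN and 1 for each other gene. The family was chosen with its poor over good ratios known, because LUM had the widest higher ratio in the poor pools. The ratios and levels of the members between the donor groups are therefore given as a description, with no test.

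Proteins of this family bind to the surface of collagen fibrils and set their diameter and spacing, and several of them also hold growth factors such as TGF-beta or signal through cell surface receptors. Their cores carry chondroitin, dermatan or keratan sulfate chains, or in some members none. In the ovary, decorin, biglycan and lumican are matrix components of stroma and of the follicle wall, which surround the granulosa layer that feeds and signals to the oocyte.

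The study drew granulosa cells from 94 Holstein cows of a commercial embryo production facility, after ovarian stimulation and a coasting interval without further hormone. RNA came from 8 pools, 4 of cows that the labels call good for the developmental competence of their oocytes and 4 of cows that they call poor. Each of the 4 arrays compared a good pool with a poor pool: pools 1 and 5 on array 1, pools 2 and 6 on array 2, pools 3 and 7 on array 3 and pools 4 and 8 on array 4. The good pool was in Cy5 on arrays 1 and 2 and in Cy3 on arrays 3 and 4. All pools share the breed, the facility and the stimulation. The labels do not give how many cows, or which, entered a pool, nor whether the pools come from separate collections, so a spread between pools cannot be divided into animals and handling. The RNA was amplified linearly over 2 rounds before labelling.

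Median spot intensities were 49 to 58 in the Cy5 channels and 121 to 164 in the Cy3 channels, against 38 to 44 and 91 to 124 in the negative controls. The share of probes above background in a pool ran from 64.3% to 72.7%. The number of arrays limits the precision. All 12 granulosa cell markers were measured. The FSH receptor FSHR and the aromatase CYP19A1, which define these cells, were above background in all 8 pools, and the transcription factor FOXL2 in all 4 good and 3 poor pools. Markers of other cell types were measured too: the stroma markers PDGFRA and COL1A1, the smooth muscle markers ACTA2 and MYH11, the theca markers CYP17A1 and INSL3, the leukocyte marker PTPRC and the epithelial marker EPCAM were above background in all 8 pools, as were the endothelial markers KDR, CLDN5 and ESAM. TEK and CDH5, also of endothelium, were above it in 7 pools and PECAM1 in 0. Other markers were above it in few pools. VWF and TAGLN were so in 2 good and 3 poor pools, DES and PDGFRB in 2 and 2. CSF1R was so in 2 good and 1 poor pools and CDH1 in 1 and 1. Of the markers on the array, 14 of 15 were measured for stroma, 7 of 7 for theca and 6 of 9 for smooth muscle and pericytes. For endothelium this held for 5 of 8, for leukocytes for 11 of 12 and for epithelium for 10 of 11. The pools are bulk RNA, so fewer cells of a type and less RNA per cell cannot be told apart.

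A probe was kept where it was above background in every pool of the good or of the poor donors. This held for 6 of the 9 probes, 1 each for LUM, DCN, BGN, OGN, FMOD and ASPN, and these 6 were above it in all 8 pools, so 6 of 7 genes were measured. The PRELP probe was above background in 3 good and 2 poor pools and was left out of the counts below. Its raw intensities were 54 and 51 in good pools 1 and 2 and 43 and 44 in poor pools 7 and 8, all in Cy5. In Cy3 they were 108 and 101 in good pools 3 and 4 and 109 and 141 in poor pools 5 and 6. These values lie close to the negative controls of the same channels. PRELP, a basement membrane linker, had ratios of -0.16, -0.01, -0.10 and 0.09 on arrays 1 to 4, but at this signal they do not measure its level. The other ASPN probes were above background in 1 of 8 and 0 of 8 pools.

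Lumican, encoded by LUM, is a keratan sulfate proteoglycan that limits the thickness of collagen fibrils and is known in the mouse for its part in the transparent cornea. In Cy5 its raw intensity was 1798 in good pool 1 and 427 in good pool 2, against 1459 in poor pool 7 and 4192 in poor pool 8. In Cy3 it was 838 in good pool 3 and 968 in good pool 4, against 3250 in poor pool 5 and 5652 in poor pool 6. Within Cy3 both poor pools were brighter than both good pools, and within Cy5 the order was mixed, since good pool 1 was brighter than poor pool 7. To set all 8 pools on 1 scale, each normalised log2 level was taken minus the mean of the 4 pools of the same dye, which hold 2 good and 2 poor pools. On that dye-centred log2 scale LUM stood at 0.18, -1.86, -1.10 and -0.93 in good pools 1 to 4. It stood at 0.79, 1.24, 0.11 and 1.58 in poor pools 5 to 8. From the lowest, the order was good pool 2, good pool 3, good pool 4, poor pool 7, good pool 1, poor pool 5, poor pool 6 and poor pool 8. The donor groups thus overlapped by a single pair, good pool 1 and poor pool 7, which lay 0.18 and 0.11 above the dye mean. Each pool was hybridised once, so a difference between neighbours in this order has no error of its own.

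**Figure D1:**
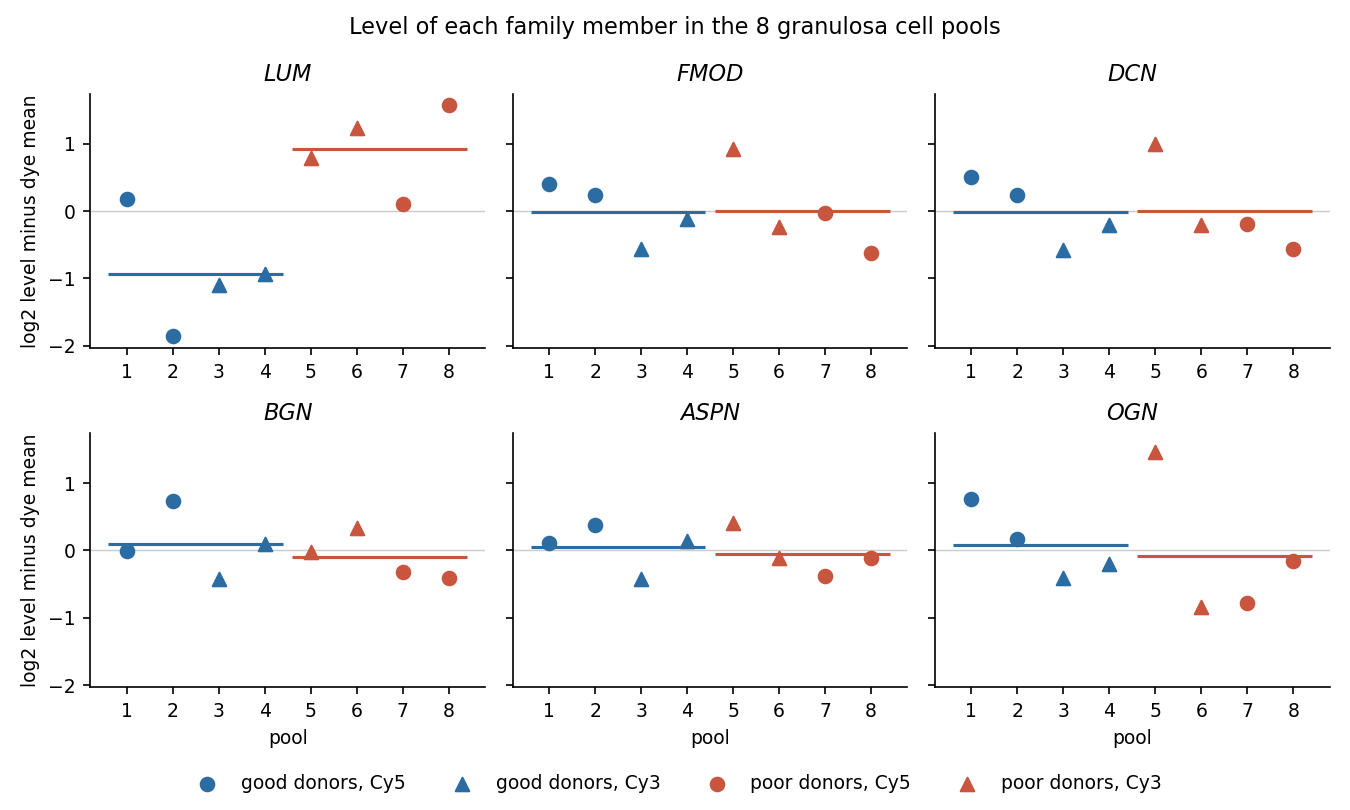
Dye-centred log2 level (y axis) of the 6 members above background in each of the 8 pools (x axis), 1 panel a gene, with blue good pools, red poor pools, circles for Cy5, triangles for Cy3 and a line at the mean of each donor group. LUM has 3 good pools between -1.86 and -0.93 and all 4 poor pools at 0.11 or above, while in the other members good and poor pools are intermingled.

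The mean dye-centred log2 level of LUM was -0.93 ± 0.84 in good pools and 0.93 ± 0.63 in poor pools (SD, n = 4 each). These means mirror each other by construction, because each dye mean holds as many good as poor pools. Its log2 ratio of poor over good, taken within each array after loess, was 0.17, 2.65, 1.65 and 2.95 on arrays 1 to 4. These are folds of 1.12, 6.30, 3.14 and 7.71. The ratio was above 0 on all 4 arrays, close to 0 on array 1 and wide on the others. Its mean was 1.85 ± 1.25 (SD, n = 4), a 3.62-fold higher level in poor pools, and the fitted difference, which gives both dye orientations equal weight, ranged from 1.23 without array 2 to 2.48 without array 1. The log2 ratios that the authors deposited gave 0.16, 2.69, 1.72 and 2.98 for the same probe, with a mean of 1.89 ± 1.27.

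Across the 10976 genes tested, LUM was in place 1 by mean ratio, in place 1 on array 4 and in place 2 on array 2. On array 3 it was in place 102 and on array 1 in place 2603. The gene next below it by mean ratio was GATM, an enzyme of creatine synthesis, at 1.32 ± 2.05, followed by the receptor kinase AXL at 1.05 ± 2.50 (SD, n = 4). Both had ratios above 4 log2 units on array 3 and below 0 on array 4, so of these 3 genes only LUM was higher in the poor pool of every array. Further down, ANKRD1 at 0.99 and CSRP3 at 0.97 also had their widest ratios on array 3, and RAB38 was higher on all 4 arrays at 0.93 ± 0.33. These ranks show the choice of LUM and carry no test.

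LUM was the 1 member of 6 with a ratio above 0 on all 4 arrays, against 5.65% of all genes tested, and 0 of 6 were below 0 on all 4 arrays, against 6.05%. LUM was also the 1 member with a mean ratio of at least 1.5-fold higher in poor pools, against 0.355% of all genes, and 0 of 6 reached 1.5-fold lower, against 0.419%. Members whose poor pools lay wholly above or wholly below the good pools numbered 0 of 6, where the shares over all genes were 2.19% and 2.43%. Because the family was picked on this contrast, nothing is read from these counts. Over all 26181 probes limma called 0 (0%) past an adjusted p of 0.05 in this contrast. The smallest adjusted p was 0.822, and 5.96% had an unadjusted p under 0.05. A looser count that adds a 1.5-fold minimum to this unadjusted p held 0.0497% of probes as higher and 0.275% as lower in poor pools.

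**Figure D2:**
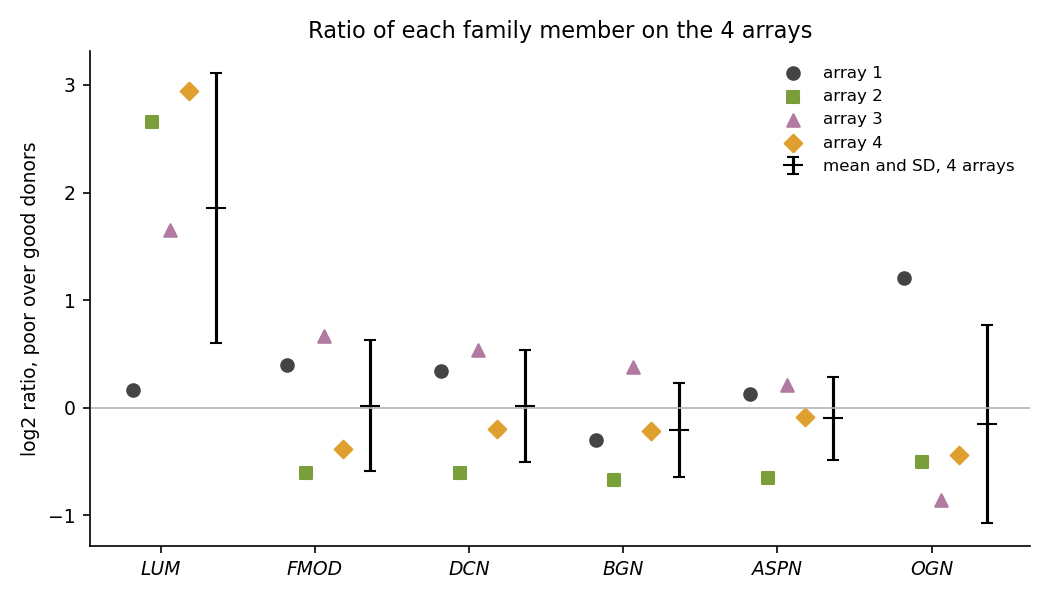
Log2 ratio of poor over good (y axis) of the 6 members above background (x axis), with a point for each of the 4 arrays and, in black, the mean with its SD. LUM lies between 0.17 and 2.95, and every other gene has arrays on both sides of 0.

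Decorin, encoded by DCN, carries 1 dermatan or chondroitin sulfate chain, coats collagen fibrils and binds TGF-beta. Its dye-centred log2 level was 0.50, 0.24, -0.57 and -0.21 in good pools 1 to 4. In poor pools 5 to 8 it was 0.99, -0.21, -0.19 and -0.56. Poor pool 5 and good pool 1, which were on the same array, were the highest, and good pool 3 and poor pool 8 were the lowest. Arrays 1 to 4 gave ratios of 0.34, -0.61, 0.54 and -0.20, and their mean was 0.02 ± 0.52 (SD, n = 4). The DCN mean was much smaller than the spread between arrays.

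Biglycan, encoded by BGN, is the nearest relative of decorin, and when released from the matrix it can activate Toll-like receptors. Its dye-centred log2 level was -0.002, 0.73, -0.42 and 0.10 in good pools 1 to 4 and -0.02, 0.34, -0.32 and -0.41 in poor pools 5 to 8. The highest level was in good pool 2 and the lowest in good pool 3, so the good pools enclosed all poor pools. The ratios were -0.30, -0.68, 0.38 and -0.22, with a mean of -0.21 ± 0.44 (SD, n = 4). Biglycan was lower in the poor pool on arrays 1, 2 and 4 and higher on array 3. Leaving out an array moved the fitted BGN difference between -0.36 and -0.06.

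Asporin, encoded by ASPN, is close to decorin in sequence but carries no sugar chain of this kind, and it competes with decorin for collagen. Its dye-centred log2 level was 0.11, 0.38, -0.43 and 0.14 in good pools 1 to 4 and 0.40, -0.11, -0.38 and -0.11 in poor pools 5 to 8. Good pool 3 and poor pool 7, again from a single array, were the lowest. The ratios were 0.13, -0.65, 0.21 and -0.09, with a mean of -0.10 ± 0.39 (SD, n = 4). The ASPN probes that were not above background had ratios of 0.16, -0.07, -0.18 and -0.02, and of 0.19, -0.14, 0.11 and -0.01.

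Fibromodulin, encoded by FMOD, binds collagen close to the site of lumican and brings lysyl oxidase to the fibril. Its dye-centred log2 level was 0.41, 0.24, -0.57 and -0.12 in good pools 1 to 4. In poor pools 5 to 8 it was 0.93, -0.24, -0.02 and -0.63. The pools ran from high to low in nearly the order seen for DCN. The ratios were 0.39, -0.60, 0.67 and -0.38, with a mean of 0.02 ± 0.61 (SD, n = 4).

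Osteoglycin or mimecan, encoded by OGN, is a keratan sulfate proteoglycan of the cornea and a matrix protein of bone and vessel wall. Its dye-centred log2 level was 0.76, 0.17, -0.41 and -0.20 in good pools 1 to 4. In poor pools 5 to 8 it was 1.46, -0.84, -0.78 and -0.15. The poor pools held both the highest and the lowest level, and the good pools lay between them. The ratios were 1.20, -0.51, -0.86 and -0.45, with a mean of -0.15 ± 0.92 (SD, n = 4). On array 1 OGN was in place 20 of 10976 genes from the top, and on array 3 it was in place 10857. Array 1 was thus the array where OGN was widely higher and LUM was not.

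The means of DCN, FMOD, OGN and ASPN were all smaller than their SD and had no stable sign. When 1 array was left out, the fitted differences ranged from -0.22 to 0.26 for DCN, from -0.25 to 0.28 for FMOD, from -0.58 to 0.27 for OGN and from -0.30 to 0.09 for ASPN. Without array 2 the fitted OGN and ASPN differences were above 0.

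On the dye-centred scale all 6 members varied more over the 4 pools of a donor group than most genes did. Each dye mean subtracted holds good and poor pools, so the SD of a donor group also carries levels of the other group. The SD of the dye-centred log2 level over 4 pools had a median of 0.14 over all genes, in good pools and in poor pools alike. In good pools it was 0.84 for LUM, 0.51 for OGN, 0.48 each for DCN and BGN, 0.43 for FMOD and 0.34 for ASPN. For LUM, 0.802% of all genes had a wider SD in good pools, and for ASPN 8.29% had. In poor pools OGN had an SD of 1.07, with 0.565% of genes wider, and DCN, FMOD and LUM had 0.68, 0.66 and 0.63, with 1.96%, 2.04% and 2.22% wider. BGN and ASPN had 0.34 and 0.33, with 8.42% and 9.10% of genes wider. The widest spread in the good pools was that of LUM and in the poor pools that of OGN.

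The fit also held a term for the array pairs, which equals the mean ratio of arrays 3 and 4 minus that of arrays 1 and 2, divided by 2. It is balanced against the donor contrast and was not used to choose the family. Dye bias of a probe and differences between the pools of the array pairs cannot be told apart in it. For LUM the term was 0.44 (limma, adjusted p = 0.727), for BGN 0.28 (adjusted p = 0.475) and for OGN -0.50 (adjusted p = 0.550). DCN, FMOD and ASPN had 0.15, 0.12 and 0.16, with adjusted p of 0.788, 0.862 and 0.695. No member passed, and over all probes 0% passed, with a smallest adjusted p of 0.124 and 12.2% at an unadjusted p under 0.05.

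The members were next compared in how they moved from pool to pool. Pearson correlations of dye-centred log2 levels over the 8 pools were computed for all 15 pairs of the 6 members. For the 10 pairs without LUM an exact two-sided permutation of pools within each dye was used, with Benjamini-Hochberg adjustment over all 15 pairs. The levels still hold the donor difference for which LUM was chosen, so its 5 pairs are given as a description, with no test. The 576 permutations cannot give a p under 0.0017. The pools share an array in pairs, and they share the amplification and the labelling. The permutation did not keep the pools of an array together and treats pools of a dye as exchangeable. Where levels shift by array, its p-values can therefore be too small.

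DCN and FMOD moved together most closely, with r = 0.99 and rho = 0.98 (exact permutation p = 0.0017, the smallest possible, adjusted p = 0.0261). Without pools 5 and 1, those farthest from the DCN median, r was 0.97. It was 0.99 among the 4 good pools and 0.99 among the 4 poor pools. The pair was the 1 of 10 that passed the threshold, by a permutation that leaves the sharing of arrays out of account. The correlation was 0.99 under each of 4 other ways of correcting background or scaling, where 1 more permutation tied with it or exceeded it and the adjusted p was 0.0521.

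OGN followed DCN with r = 0.86 (rho = 0.69, exact permutation p = 0.0434, adjusted p = 0.160), but r was 0.30 without pools 5 and 1, so this value rests on those pools. OGN and FMOD had r = 0.80 (rho = 0.64, exact permutation p = 0.0608, adjusted p = 0.160) and 0.19 without the same pools. ASPN had r = 0.77 with DCN (rho = 0.76, exact permutation p = 0.0469), r = 0.74 with FMOD (rho = 0.71, p = 0.0642) and r = 0.75 with OGN (rho = 0.69, p = 0.0556), each with an adjusted p of 0.160. These 3 values stayed between 0.70 and 0.74 without the farthest pools. BGN was closest to ASPN, with r = 0.68 (rho = 0.67, exact permutation p = 0.0903, adjusted p = 0.194). Its r with DCN was 0.39, with FMOD 0.39 and with OGN 0.12, with adjusted p between 0.538 and 0.931. Without pools 5 and 1 the r of BGN with DCN was 0.88. Without pools 2 and 3, those farthest from the BGN median, its r was 0.375 with ASPN, 0.22 with FMOD and -0.01 with OGN. Which member BGN was closest to thus depended on the pools used.

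LUM had r = 0.02 with DCN, -0.05 with FMOD, 0.04 with OGN, -0.15 with ASPN and -0.38 with BGN. Within the 4 good pools alone the same values were 0.35, 0.30, 0.58, -0.19 and -0.52, and within the 4 poor pools -0.32, -0.47, 0.04, 0.24 and 0.17, so few pools stand behind each. Without pools 2 and 8, those farthest from the LUM median, the same correlations were 0.52, 0.50, 0.19, 0.35 and 0.59. The low values with DCN, FMOD and BGN thus rest on these pools. With ASPN the r changed sign but stayed modest, and with OGN it stayed low. In good pool 2, which had the lowest LUM level, DCN stood at 0.24, FMOD at 0.24 and BGN at 0.73 above the dye mean. In poor pool 8, which had the highest LUM level, DCN and FMOD had -0.56 and -0.63, with DCN near its lowest level and FMOD at its lowest.

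**Figure D3:**
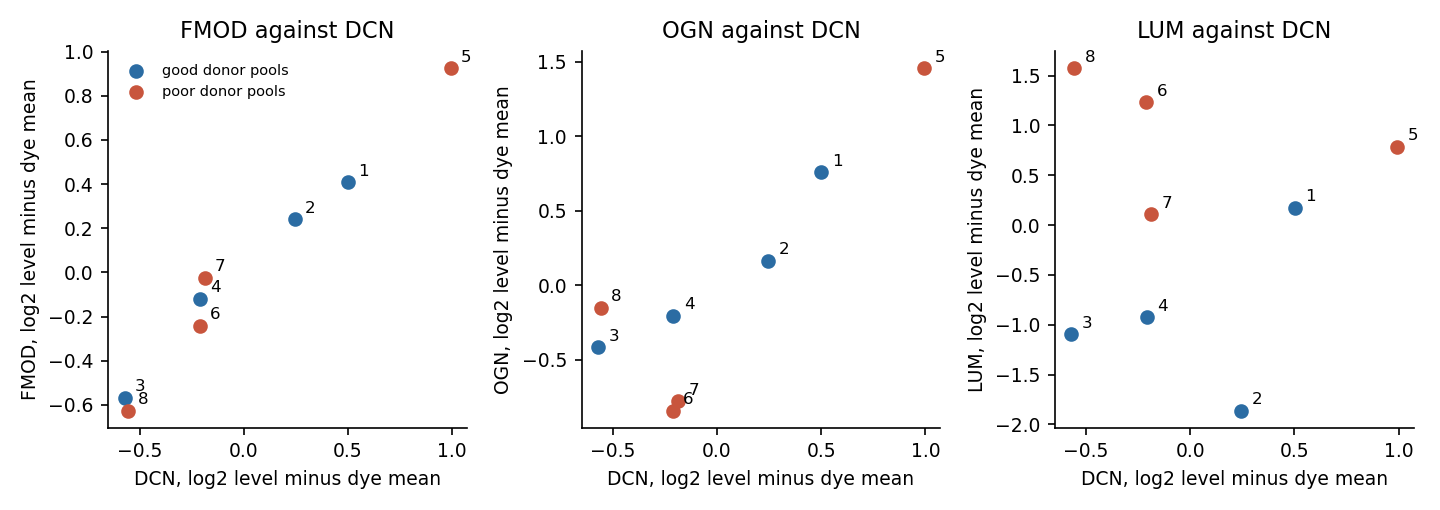
Dye-centred log2 level of FMOD, OGN and LUM (y axis, 1 panel a gene) against that of DCN (x axis), each point a pool with its number, blue for good and red for poor donors. DCN and FMOD lie along a line (r = 0.99) and the OGN panel is drawn out by pool 5. LUM shows no line with DCN over the 8 pools (r = 0.02, or 0.52 without pools 2 and 8).

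LUM and DCN are direct neighbours in the ARS-UCD2.0 annotation, in the order EPYC, KERA, LUM, DCN and BTG1. KERA, which encodes keratocan of the cornea, and EPYC, which encodes epiphycan of cartilage, were above background in 0 of 8 pools. Of this run of 4 family genes, LUM and DCN were thus measured, and their levels had r = 0.02, or 0.52 without pools 2 and 8. OGN and ASPN stand in the order OGN, OMD, ASPN and ECM2. FMOD and PRELP are neighbours too, followed by OPTC, while BGN lies between ECMX and ATP2B3, with no other followed member beside it. The closest pair in level, DCN and FMOD, are therefore not neighbours in this annotation.

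Of 11 other genes of the family or its near relatives, 8 were measured. By mean ratio 3 were higher and 5 lower, 0 passed the adjusted threshold and the median was -0.06, against 0.001 over all genes tested. Over all genes 6.97% had an unadjusted p under 0.05, and here 1 of 8 had. This gene was CHADL, chondroadherin-like, at -0.58 ± 0.14 with all 4 arrays below 0 (SD, n = 4; limma, adjusted p = 0.822). The other CHADL probes gave means of -0.05 and 0.11. CHAD, chondroadherin, had -0.18 ± 0.26 and the podocan gene PODN -0.15 ± 0.20. OMD, osteomodulin, had 0.10 ± 0.17 and ECM2 had -0.11 ± 0.21. OPTC, TSKU and PODNL1 had 0.03, -0.01 and 0.01. The OMD level followed that of DCN with r = 0.76 and that of LUM with r = 0.19 over the 8 pools.

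The next list held fibrillar collagens, to which the family binds, and proteins that process and cross-link them. It also held other matrix genes, namely COL6A1, COL6A2, COL6A3, COL12A1, FN1, FBN1, ELN and TNXB among those measured. Of its 33 genes 24 were measured, and 21 were higher and 3 lower in poor pools by mean ratio, where 50.3% of all genes were higher. Their median log2 ratio was 0.14, against 0.001 over all genes, and 0 of 24 passed the adjusted threshold. On arrays 1 to 4 the list median was 0.003, 0.22, 0.31 and 0.003, so it lay above 0 mainly on arrays 2 and 3. It was 0.01 without array 2, 0.05 without array 3 and 0.06 with mean in place of median spot intensities. The number of genes above 0 on all 4 arrays was 5 of 24, against 5.65% of all genes, and 0 were below 0 on all 4, against 6.05%.

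COL1A1, a chain of type I collagen, had ratios of 0.18, 0.79, 0.58 and 0.31, with a mean of 0.46 ± 0.27 (SD, n = 4; limma, adjusted p = 0.822). COL3A1, the chain of type III collagen, had 0.17, 0.51, 0.77 and 0.04, with a mean of 0.37 ± 0.33 (adjusted p = 0.830). Both were above 0 on all 4 arrays, as LUM was. P4HA2, a prolyl hydroxylase of collagen, had 0.17 ± 0.12 (adjusted p = 0.830). The levels of COL1A1 and COL3A1 had r = 0.51 and 0.33 with LUM, and r = 0.50 and 0.66 with DCN. Over the 24 genes the median r was 0.20 with LUM and 0.08 with DCN, where the medians over all genes were 0.01 and 0.01. PLOD1, a lysyl hydroxylase, had the highest r with DCN at 0.82, and SERPINH1, the collagen chaperone, the lowest at -0.86.

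**Figure D4:**
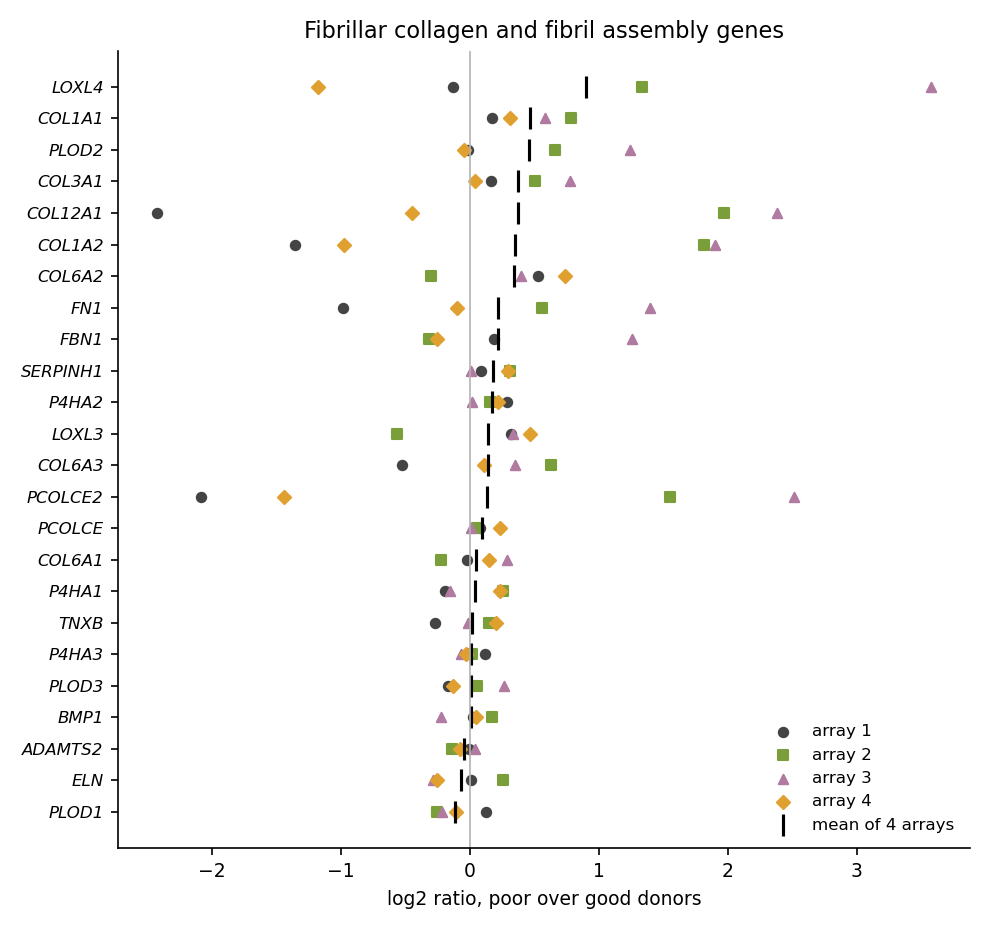
Log2 ratio of poor over good (x axis) of the 24 measured genes of the list of fibrillar collagens, their assembly and other matrix genes, ordered by mean. Each of the 4 arrays has a point, and a black bar marks the mean. Of 24 genes 21 have a mean above 0, and most have arrays on both sides of 0.

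The enzymes that build and sulfate the sugar chains of the family stood evenly, with 11 of 23 higher, 12 lower, 0 called and a median of -0.004. B4GALT7, which adds a galactose of the linker between core and chain, had 0.22 ± 0.05 (limma, adjusted p = 0.822). CHST11, a chondroitin sulfotransferase, had -0.21 ± 0.51, and FAM20B, the kinase of the linker xylose, -0.30 ± 0.26 (adjusted p = 0.830 each). The highest r with LUM among these 23 genes was 0.80, for the sulfate transporter SLC26A2, whose mean ratio was only 0.06 ± 0.08. An r of at least 0.7 with LUM was found for 3.01% of all genes.

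Among 19 measured proteoglycans outside the family, 8 were higher, 11 lower and 0 called, with a median of -0.03. CSPG4 had 0.21 ± 0.12, the lubricin gene PRG4 -0.15 ± 0.05 and the hyaluronan receptor CD44 -0.17 ± 0.13 (limma, adjusted p at least 0.822 each). SDC2, a cell surface heparan sulfate proteoglycan, followed DCN with r = 0.89. Receptors and growth factors known to bind members of the family had 6 of 14 genes higher, 8 lower and 0 called, with a median of -0.02. TGFB3, a ligand held by decorin, had -0.59 ± 0.62 (adjusted p = 0.822), the integrin chain ITGB1 0.22 ± 0.19 and IGF1R, a receptor of decorin, -0.28 ± 0.30 (adjusted p = 0.830 each). A list of proteases known to cleave the family and of their inhibitors TIMP1 and TIMP2 had 7 of 10 genes higher, 3 lower and 0 called, with a median of 0.05. MMP7 had -0.57 ± 0.26 with all 4 arrays below 0 (adjusted p = 0.822), MMP14 -0.30 ± 0.56 (adjusted p = 0.832) and GZMB -0.12 ± 0.13 (adjusted p = 0.851).

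LUM, DCN and OGN are also abundant in fibroblasts, so marker lists of the cell types that a granulosa sample can hold were set beside them. Of 14 stroma and fibroblast markers without the family members, 7 were higher and 7 lower, with a median of -0.02. MFAP5, a microfibril protein, had -0.44 ± 0.68 and PI16 -0.21 ± 0.25 (limma, adjusted p at least 0.822 each), and COL1A1 had the values above. The summed stroma level, relative to the mean of pools of the same dye, was 0.603 to 1.25 in good pools and 0.688 to 1.59 in poor pools, and its r with LUM was 0.35. The part of stroma cells in the LUM values was not tested.

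The granulosa markers had 10 of 12 genes lower in poor pools and 0 called, with a median of -0.09, where 50.3% of all genes were higher. INHA, the inhibin alpha chain, had -0.60 ± 1.32, the nuclear receptor NR5A2 -0.25 ± 0.03 and WT1 -0.30 ± 0.33 (limma, adjusted p at least 0.822 each). The INHA ratios were -1.79 and -1.70 on arrays 1 and 2 but 0.40 and 0.68 on arrays 3 and 4. Their summed relative level was 1.03 to 1.13 in good pools and 0.868 to 1.01 in poor pools, and its r with LUM was -0.62. The summed granulosa level was thus lower in every poor pool than in every good pool, but narrowly, with poor pool 8 at 1.01 and good pool 1 at 1.03. Of single genes, 2.43% had all 4 poor pools below all 4 good pools. Bright genes add most to such a sum, and its part in the LUM difference was not tested. Of the other lists, theca had 3 of 7 genes higher (median -0.004), smooth muscle and pericytes 3 of 6 (0.02), endothelium 3 of 5 (0.02) and leukocytes 4 of 11 (-0.05), with 0 called in each. Their genes of smallest p were LHCGR at -0.23 ± 0.75, MYL9 at -0.49 ± 0.55, TEK at -0.07 ± 0.13 and CD3E at -0.44 ± 0.41 (limma, adjusted p at least 0.822 each). The summed theca level was 0.483 to 1.38 in good and 0.803 to 1.27 in poor pools and had r = 0.46 with LUM. For smooth muscle and pericytes the ranges were 0.858 to 1.16 and 0.965 to 1.15 with r = -0.19, for endothelium 0.885 to 1.05 and 0.936 to 1.15 with r = 0.12, and for leukocytes 0.70 to 1.34 and 0.847 to 1.13 with r = 0.15.

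Of the 7 marker lists, that of the ovarian surface or tubal epithelium had the highest median r with DCN, at 0.38. Smooth muscle and pericytes were near it at 0.32 and stroma at 0.25. Of 10 epithelial markers measured, KRT19 had r = 0.91 with DCN over the 8 pools, UPK3B 0.90, MSLN 0.76 and KRT7 0.68. The other 6 were lower, from 0.40 for PAX8 to -0.17 for OVGP1 and -0.24 for FOXJ1, and the median of the 10 was 0.38. An r of at least 0.7 with DCN was found for 4.86% of all genes. The summed level of the list was 0.512 to 1.05 in good pools and 0.528 to 1.58 in poor pools, and its r with LUM was 0.16. By ratio 4 of 10 were higher and 6 lower, with a median of -0.15 and 0 called. KRT19 had -0.37 ± 0.58 (limma, adjusted p = 0.847), UPK3B -0.31 ± 0.49 (adjusted p = 0.860) and PAX8 0.15 ± 0.24 (adjusted p = 0.864). The part of such cells in the shared DCN and FMOD levels was not tested.

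**Figure D5:**
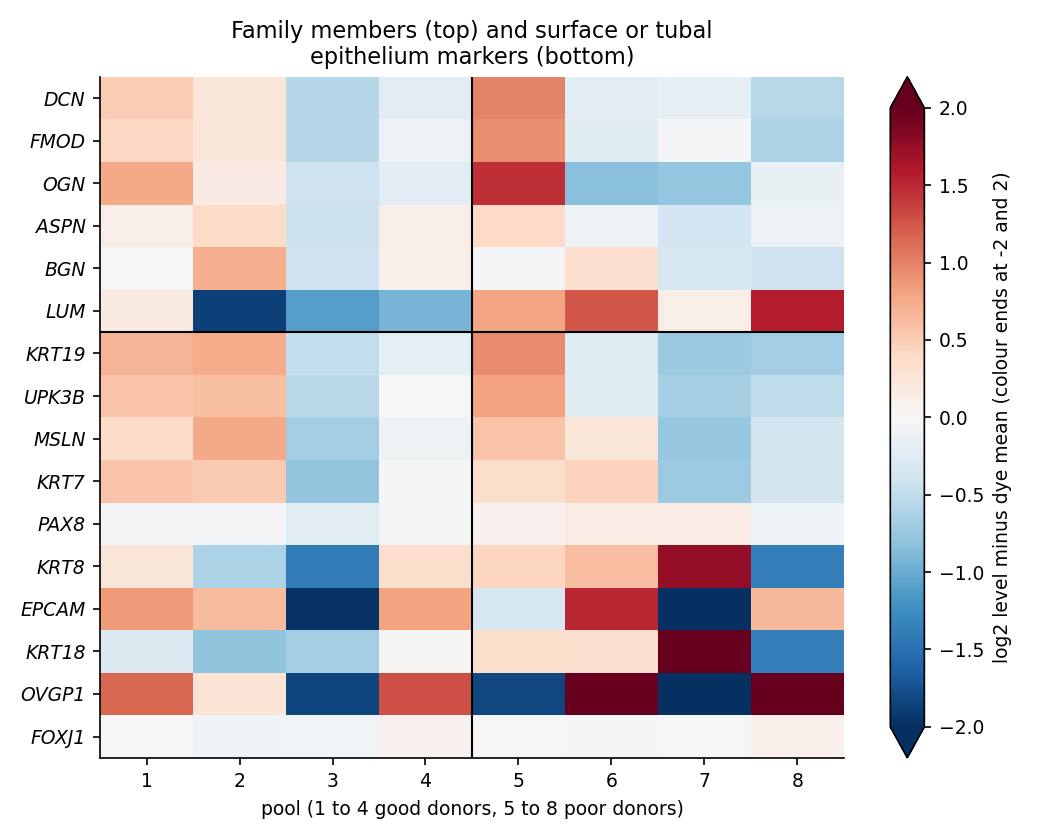
Dye-centred log2 level (colour, with its ends at -2 and 2) of the 6 members (top) and the 10 measured epithelial markers (bottom) in the 8 pools (columns, good pools left of the line). DCN, FMOD, KRT19 and UPK3B are above the dye mean in pools 1, 2 and 5, while LUM is lowest in good pool 2 and highest in poor pool 8.

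The genes whose pool pattern was most like that of LUM were taken among the 888 genes with a dye-centred range of at least 1 log2 unit. The likeness was Pearson's r over the 8 pools. An r over 0.8 was found for 5 of the 888 genes, or 0.563%, and an r under -0.8 for 0. With 8 values each, this count is given as a description, with no test. CDKN1A, the cell cycle inhibitor p21, was nearest at 0.88, with ratios of 0.23, 0.26, 0.43 and 1.01 on arrays 1 to 4. ODF2L followed at 0.85, ANKRD10 at 0.83, the hemicentin gene HMCN1 at 0.81 and RNF128 at 0.81. HMCN1, which encodes a matrix protein, had ratios of 0.11, 0.29, 1.10 and 1.02. The levels compared hold the donor difference for which LUM was chosen, so ratios like those of LUM follow from picking genes by r. The phosphatase gene DUSP1 had r = 0.80, IFT81 and TMEFF2 0.79 each, the metallothionein genes MT1A and MT2A 0.75 and 0.74, AMIGO2 0.73 and NUDT11 0.72. The lowest r were those of TPM2, a tropomyosin, at -0.79, NT5M at -0.76, RUNX1T1 at -0.75, PACSIN1 at -0.70 and PIK3IP1 at -0.69. This set rested on single arrays, since 0 of the 12 nearest genes stayed among the nearest without array 2 and 0 without array 4. It held 7 of the 12 when the scaling between arrays was left out.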

How the data were processed

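Granulosa cell RNA of 8 pools was hybridised to 4 two-colour arrays. Per the file headers, the deposited scanner tables give the intensity of each spot and of its local background, with no normalization. The authors also deposited 1 log2 ratio a probe in the series matrix, and how they normalized it is not stated in the sources at hand. Against the loess ratios below, these had correlations of 0.971 to 0.980 and array medians from -9.92e-05 to 0.00262, and their direction was poor over good. They served as an alternative.

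Median spot intensities were corrected by limma 3.58.1 (R 4.3.3) with normexp (offset 50), and loess (span 0.3) was run within arrays with the 1418 control spots at weight 0. Ratios were turned to poor over good. Above background means a raw intensity over the mean plus 2 SD of 153 negative controls, and 26181 of 43794 probes (59.8%) were kept that were so in all 4 pools of a donor group. The annotation names 1 symbol for 21790 probes and none here for 22004. Of these symbols 20025 were current in ARS-UCD2.0, 1524 were updated and 241 were kept as given. A gene was read from its probe of highest mean brightness (10976 genes). limma fitted the donor contrast and an array pair term (2 residual and 2.51 prior degrees of freedom), with Benjamini-Hochberg adjustment over all kept probes at 0.05. P-values thus rest on how far arrays with equal dye assignment differ, which may be technical. Pool levels were scaled by Aquantile and then centred within each dye. The fit was tested on simulated data.

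The members, the 6 gene lists and the 7 marker lists were chosen with earlier results of these data known. Named genes were every member, every measured relative, up to 3 genes of smallest p in each list, COL1A1 and COL3A1, and the 12 genes most and 5 least like LUM. On top of this rule come defining cell type markers, other markers named for their background calls, and genes named only to describe a list. Genes next to LUM by mean ratio come on top of it too. List genes named for a high or low correlation with LUM or DCN also do, and were chosen after their values were seen. Alternatives changed the background correction, normalization, spot summary, filter, probe choice, dye term and scaling, used the series matrix, or left out an array. No coordinates or sequences are given, because the probes' build and sequences are not used here.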

Additional observations from a re-analysis of the deposited data

Results flagged for a closer look

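Among 31 groups of 4 values examined, in which chance alone places about 1 in 20 this far out, 1 held a value far from the others. The median log2 ratio of the 19 measured proteoglycans outside the family was 0.18 on array 3, against -0.07 to -0.03 on the other arrays. No member of the family was singled out in this way.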

How the results depend on the processing

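Each alternative that was run gave 0 probes past the adjusted threshold. The looser count (unadjusted p under 0.05 and at least 1.5-fold) was 13 higher and 72 lower. It was 5 and 27 with mean spot intensities, 21 higher without background correction, 31 higher with local background subtracted, 30 higher with the series matrix values, and 27 to 211 higher and 85 to 210 lower when 1 array was left out. LUM had 1.23 to 2.48 without 1 array and 1.76 to 1.89 in the other alternatives. With its ratio above 0 on every array, no fit without 1 array could fall below 0. Leaving out the dye term, or averaging kept probes where LUM has only 1, could not change its value. BGN stayed below 0. DCN and FMOD had -0.02 and -0.03 with median centring in place of loess. The granulosa list median ranged from -0.249 to -0.0236 and that of smooth muscle and pericytes from -0.18 to 0.11 without 1 array. Of the 12 genes most like LUM, 7 were shared without the Aquantile step and 0 to 9 without 1 array. For DCN and FMOD, alternatives chosen after seeing the data gave r of 0.990 without Aquantile, 0.987 with median centring, 0.987 with local background subtracted and 0.987 without background correction, each with adjusted p = 0.0521. Without 1 array r was 0.964 to 0.995, with adjusted p of 0.139 to 0.417, where 6 pools cannot give an exact permutation p under 0.028. Each array's ratio pairs a good with a poor pool, so the main fit is already paired by array. LUM rests on 1 probe and 1 hybridisation a pool. BGN and ASPN were dim, at raw intensities of 61 to 270, which limits their ratios.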

Other observations

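The genes closest in level to DCN were listed after its values had been seen. Among the 888 genes with a range of at least 1 log2 unit, FMOD was in place 1 with r = 0.99 over the 8 pools. It was followed by RNASE4, a secreted ribonuclease, at 0.97, LOC505033 at 0.97, the complement genes C4A at 0.95 and C3 at 0.94, TF, which encodes transferrin, at 0.94, the complement regulator C4BPA at 0.94 and the matrix gene OLFML3 at 0.94. The dye-centred log2 level of C3 was 0.74, 0.51, -1.06 and -0.22 in good pools 1 to 4 and 1.24, 0.04, -0.69 and -0.56 in poor pools 5 to 8. Like DCN, C3 was highest in poor pool 5 and good pool 1 and lowest in good pool 3. Its mean log2 ratio of poor over good was 0.01 ± 0.49 (SD, n = 4).

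The lowest correlation with LUM among the listed genes was that of MYL9, a myosin light chain of contractile cells, at r = -0.98, singled out after its value was seen. MYL9 stood at -0.09, 0.50, 0.37 and 0.21 in good pools 1 to 4 and at -0.14, -0.44, 0.08 and -0.49 in poor pools 5 to 8, on the dye-centred log2 scale. It was highest in good pool 2, where LUM was lowest, and lowest in poor pool 8, where LUM was highest. Its range of 0.98 was just under the limit of 1 log2 unit for the genes ranked by likeness.

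The chains of type I collagen had unlike ratios, a comparison also made after the values were seen. COL1A1 was above 0 on all 4 arrays, while COL1A2 had -1.35, 1.82, 1.90 and -0.97 on arrays 1 to 4. LUM, like COL1A1, was not below 0 on any array.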
